A study of Papio hamadryas with 4 samples.

Results

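The difference of the sodium response between the SLC phenotypes was taken gene by gene as the log2 ratio of high over low sodium in HSLC minus the same ratio in NSLC. All 4 arrays of the study enter it, so every array can move it. Of 18774 genes with a probe of 1 gene symbol, 11908 were detected on all 4 arrays and received a value. A positive difference means that the high-over-low ratio was greater in HSLC, and a negative one that it was smaller there.

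The RNA came from kidney biopsies of baboons (Papio hamadryas) and was hybridised to Illumina bead arrays with probes for human genes. The phenotypes were normal SLC (NSLC) and high SLC (HSLC). The labels do not spell SLC out. In baboon work on blood pressure the abbreviation stands for sodium-lithium countertransport, an exchange activity measured in red cells. Low and high sodium diets of 6 weeks each preceded the biopsies, which gives 4 groups of 1 array each: NSLC and HSLC, each on both diets. The labels give no age, sex, number of animals per array, pooling or order of diets. With 1 array a group there is no replicate error, so no difference below was tested, and each one is a description of these 4 arrays.

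A kidney adjusts sodium excretion along the nephron. The proximal tubule reclaims most filtered sodium together with phosphate, glucose and amino acids, the thick ascending limb takes up sodium through SLC12A1, and aldosterone sets the epithelial sodium channel in the collecting duct. A biopsy holds all of these segments as well as vessels, blood and immune cells, and in such bulk RNA fewer cells of a type and less RNA per cell cannot be told apart.

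Markers of the labelled tissue were present: of 43 proximal tubule genes on the array 37 were detected on all 4 arrays, and of 15 podocyte genes 14. Median deposited intensities ran from 68.2 to 79.5, and the 99th percentile was 3298 on the NSLC high-sodium array against 2320 to 2490 on the others. The HSLC low-sodium array stood apart in skeletal muscle transcripts, described below with and without them.

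The differences were narrow. Their median was 0.0011, their SD over genes was 0.23, and 95% of genes lay between -0.45 and 0.40. Of all genes, 50.3% were above 0 and 49.7% below. As a technical yardstick, 515 genes had a second bright probe, and the probes of 1 gene scattered with an SD of 0.18 in the difference. By a size rule of 2-fold, which is a log2 difference of 1 and no test, 8 genes (0.0672% of those detected) were higher in HSLC and 34 (0.286%) were lower, 42 in all (0.353%). Without normalization the 2-fold counts were 7 and 103 and with median scaling 7 and 75, and the median difference of all genes then stood at -0.21 and -0.14. At 1.5-fold, after quantile normalization, the counts were 73 (0.613%) and 146 (1.23%). Just inside the rule stood DLK1 at 1.02 (no single array) and SERPINA6 at -1.04 (carried by the HSLC high-sodium array). Just outside it stood GBP2 at 0.98 (HSLC high-sodium array), CTH at -0.97 and PSAP at -0.97 (both with no single array).

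Because 1 array stands behind each group, a difference can rest on a single array. An array was said to carry a gene's difference when it lay farthest from the median of the other 3, when those 3 spanned less than 0.5 of that distance, and when its departure gave the difference its sign. Of the 42 genes at 2-fold, the HSLC low-sodium array carried 18, the HSLC high-sodium array 8, the NSLC high-sodium array 4 and the NSLC low-sodium array 0. No single array carried the other 12. Over all detected genes the order was another one: the NSLC high-sodium array carried 1391 (11.7%), the HSLC high-sodium array 903, the NSLC low-sodium array 901 and the HSLC low-sodium array 339. The 18 genes of the HSLC low-sodium array were all lower in HSLC. Without normalization the NSLC high-sodium array carried 26 of the genes past 2-fold in place of 4.

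**Figure D1:**
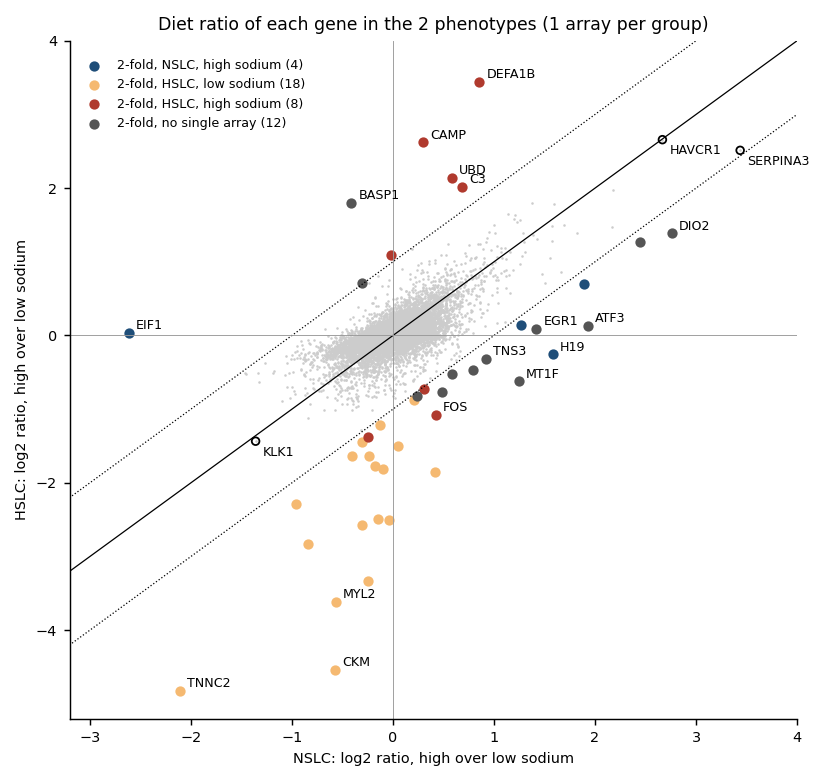
Each grey point is 1 of 11908 genes, with its log2 ratio of high over low sodium in NSLC on the horizontal axis and in HSLC on the vertical axis; the solid line marks equal ratios and the dotted lines a difference of 2-fold. Coloured points are the 42 genes past 2-fold, coloured by the array that carries the difference. The HSLC low-sodium group runs down below the line of equal ratios, with an HSLC ratio that is negative and larger in size than the NSLC ratio. TNNC2 in this group also has an NSLC ratio of -2.11. HAVCR1 and KLK1 (open circles) lie on the line of equal ratios.

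Skeletal muscle genes made up the largest set of differences, and the HSLC low-sodium array carried all 12 members of the skeletal muscle list past 2-fold. CKM, the muscle creatine kinase, stood at a log2 level of 8.08 and 7.51 in NSLC on low and high sodium and at 11.93 and 7.38 in HSLC. Its difference of -3.97, a 15.6-fold smaller ratio, was the lowest among genes detected on all 4 arrays, and the other 3 arrays lay within 0.70 of each other. TNNC2, the troponin C of fast fibres, stood at 8.46 and 6.34 in NSLC and at 11.10 and 6.27 in HSLC, with a difference of -2.71. Its NSLC low-sodium level also lay above both high-sodium levels, yet the HSLC low-sodium array was the farthest one. MYL2, a myosin light chain of slow fibres, stood at 7.60, 7.04, 10.72 and 7.11 in the order NSLC low, NSLC high, HSLC low and HSLC high sodium, with a difference of -3.05. The same order of arrays is used in the lists of 4 levels below.

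ENO3, the muscle enolase, had a difference of -3.09 carried by the HSLC low-sodium array, but its other probe gave -0.36. The myosin light chain MYL3 (-2.47), the titin-cap protein TCAP (-2.34), the fast-fibre actinin ACTN3 (-2.28), the LIM protein PDLIM3 (-2.27) and the Z-disc protein MYOZ1 (-1.99) followed, each carried by the same array. TNNC1 (-1.33), the mitochondrial creatine kinase CKMT2 (-1.23) and desmin, DES (-1.08), completed the 12 members of the skeletal muscle list past 2-fold, again by that array. A further 6 genes were carried by it and were recognised as genes of striated muscle only after their values were seen: TMOD4 (-1.71), HRC (-1.59), MYBPH (-1.55), NRAP (-1.40), MYBPC2 (-1.15) and PDLIM7 (-1.08). As the mean over its detected probes, PDLIM7 stood at -0.79, short of 2-fold. FHL3, a LIM protein of muscle, had a difference of -1.25 with no single array, since its NSLC low-sodium level of 6.32 lay below the others as well.

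The skeletal muscle list had 41 genes on the array, of which 18 were detected on all 4 arrays. Those 18 had a median difference of -1.66, against 0.0011 for all genes, and 2 lay above 0. ATP2A1, the calcium pump of fast fibres, was one of them at 0.77, with no single array. The summed normalized intensity of all 41 list members on the array, detected or not, was 7098, 5833, 32067 and 6042 in that order. A further 9 list members were detected on the HSLC low-sodium array alone. Of the 18 detected on all 4 arrays, 16 had their highest value there, against 15.6% of all genes. Of the 41 on the array 36 did, but 7 of the 41 were detected on none. MYH7, the slow myosin heavy chain, and TNNT3, the fast troponin T, were not detected on the HSLC high-sodium array. With that array set at its median, their differences were at most -4.05 and -3.68, and the HSLC low-sodium array at 10.63 and 10.66 carried both. The part of muscle tissue in the biopsy in these differences was not tested. Without the list, 22 genes were lower and 8 higher, and the HSLC low-sodium array carried 6 of these 30. Those 6 were the striated muscle genes outside the list: TMOD4, HRC, MYBPH, NRAP, MYBPC2 and PDLIM7.

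**Figure D2:**
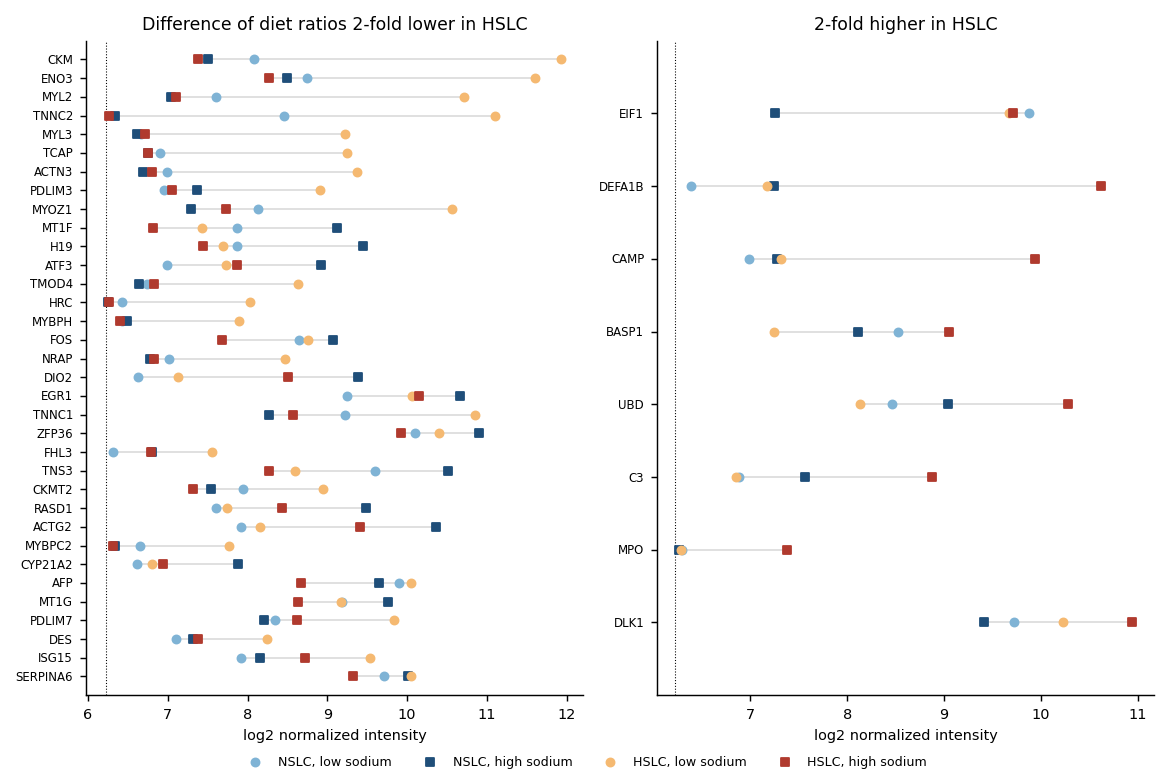
Log2 normalized intensity of the 42 genes past 2-fold on each of the 4 arrays (circles for low and squares for high sodium, blue for NSLC and orange or red for HSLC), in order of the difference; the dotted line is the detection level of 6.23. In the muscle rows at the top left the orange circle stands alone to the right, in DEFA1B and CAMP the red square does, and in EIF1 the dark blue square stands alone to the left.

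Of the 8 genes higher in HSLC by 2-fold, 5 were carried by the HSLC high-sodium array: the neutrophil granule genes DEFA1B, CAMP and MPO, and UBD and C3. DEFA1B, an alpha-defensin of neutrophil granules, stood at 6.39, 7.24, 7.17 and 10.61. Its difference was 2.59, a 6.02-fold greater ratio, and its other probe gave 1.63. Alpha-defensin genes have near-identical copies, and the probes may not tell them apart. CAMP, the cathelicidin of the same granules, stood at 6.98, 7.28, 7.32 and 9.94, with a difference of 2.32. MPO, the myeloperoxidase, stood at 6.29, 6.27 and 6.29 on the other arrays, just above the detection level of 6.23, and at 7.37 on the HSLC high-sodium array, with a difference of 1.11. In all 3 genes only the HSLC high-sodium array stood apart.

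The other members of the neutrophil list showed smaller differences. Of its 25 genes on the array, 13 were detected on all 4 arrays, with a median difference of 0.15 and 11 above 0. BPI, another granule protein, stood at 0.77 (HSLC high-sodium array) and LTF at 0.64 (no single array). The calprotectin subunit S100A9 stood at 0.03, the Fc receptor FCGR3B at -0.15 and LCN2 at -0.14, while S100A8, S100A12, CSF3R, CXCR2, MMP8 and CEACAM8 were detected on none of the arrays. MMP9, a gelatinase, was detected on the high-sodium arrays alone, at 6.29 in NSLC and 7.81 in HSLC. The summed level of all 25 list genes on the array, detected or not, was 2117, 2153, 2172 and 4778.

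UBD, a ubiquitin-like protein induced by interferon gamma and TNF, stood at 8.46, 9.04, 8.14 and 10.28. The complement component C3 stood at 6.88, 7.56, 6.85 and 8.87. Their differences of 1.56 and 1.34 were carried by the HSLC high-sodium array, and in both genes the NSLC high-sodium level also lay above the low-sodium levels. GBP2, an interferon-induced guanylate-binding protein, reached 0.98 by the same array. The 15 detected genes of the interferon gamma list had a median of 0.20 with 10 above 0, but the median was -0.14 without normalization and -0.07 with median scaling, in each case still above the median over all genes. MHC class II genes, which present antigen, had a median of 0.25 with 10 of 13 above 0, and -0.06 without normalization. The median of this list stayed 0.12 to 0.34 above the median of all genes over the alternatives. HLA-DRA stood at 0.70 with no single array, since both high-sodium arrays lay above both low-sodium ones, and HLA-DPA1 at 0.57 was carried by the HSLC high-sodium array. HLA-DQB1 at 0.55 was carried by a low HSLC low-sodium level of 6.55. Of the 13 class II genes, 8 had their lowest level on the HSLC low-sodium array, against 16.8% of all genes. The highest level was on the NSLC high-sodium array in 6 and on the HSLC high-sodium array in 6.

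T and NK lymphocyte markers had a median of 0.18 with 15 of 17 above 0, and 13 of the 17 had their highest level on the HSLC high-sodium array, against 29.4% of all genes. CD2, an adhesion receptor of T cells, stood at 6.68, 6.85, 6.75 and 7.58 and was carried by that array at 0.66. Of the 17, 9 had their lowest level on the NSLC high-sodium array, against 29.5% of all genes. High sodium had the higher level in 7 of them in NSLC and in 13 in HSLC. ZAP70 at 0.53 and CD4 at 0.46 had no single carrier. Both stood highest on the NSLC low-sodium array, at 9.12 and 7.84, and lower on high sodium in both phenotypes. Macrophage markers had a median of 0.11 with 15 of 20 above 0, which turned to -0.10 without normalization and -0.03 with median scaling. Their median stayed 0.08 to 0.24 above the median of all genes over the alternatives. Their leading member was the adaptor TYROBP at 0.60, again by the HSLC high-sodium array. Whether more immune cells or more RNA per cell stood behind these levels was not tested. The complement list as a whole had a median of -0.02 with 11 of 22 above 0, and C3 was its highest member: CFB was at -0.21 (no single array) and C5 at -0.61 (NSLC high-sodium array).

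**Figure D3:**
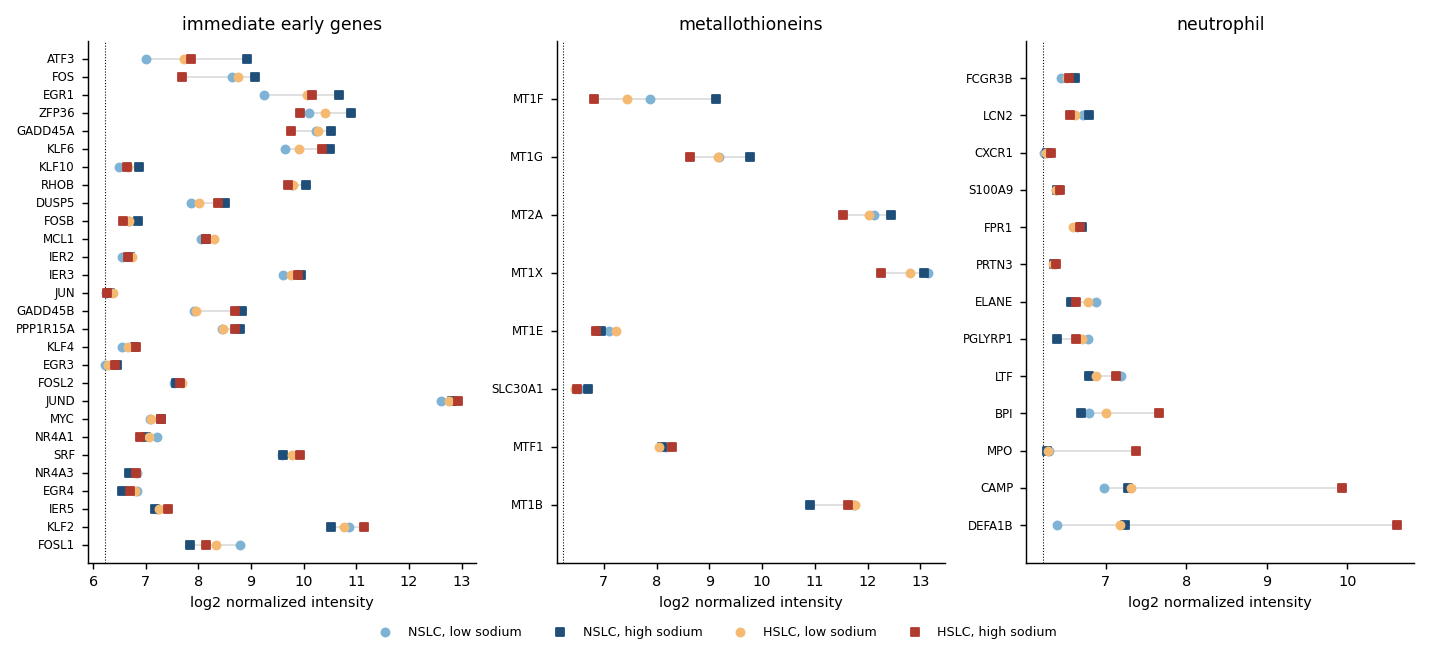
Log2 normalized intensity on each array for the members of 3 gene lists that were detected on all 4 arrays, ordered from the lowest difference at the top; the dotted line is the detection level of 6.23. In the neutrophil panel DEFA1B, CAMP and MPO have the HSLC high-sodium square to the right while S100A9 and FCGR3B show no such gap, and in the metallothionein panel MT1F and MT1G have the NSLC high-sodium square highest and the HSLC high-sodium square lowest.

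Immediate early genes, which cells switch on within minutes of a stimulus, and metallothioneins, which bind zinc and copper, gave 6 of the 34 lower genes, 4 of 28 detected in the first list and 2 of 8 in the second. For most of those 6 no single array carried the difference, and in those the NSLC high-sodium level was the highest. ATF3, a stress-induced transcription factor, stood at 6.99, 8.92, 7.73 and 7.86, with a difference of -1.80. EGR1, another early transcription factor, stood at 9.25, 10.66, 10.06 and 10.15, with a difference of -1.33. ZFP36, which destabilises cytokine mRNAs, stood at 10.10, 10.90, 10.40 and 9.93, with a difference of -1.26. These 3 genes had no single carrier.

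FOS, a subunit of the AP-1 transcription factor, differed from them. It stood at 8.64, 9.07, 8.75 and 7.68, and the HSLC high-sodium array carried its difference of -1.50. Of the 28 detected genes in the list, 7 lay above 0 and the median was -0.17. KLF2 at 0.73 and FOSL1 at 0.75 went the other way with no single array, and 15 of the 28 genes had their highest level on the NSLC high-sodium array, against 28.2% of all genes. The NSLC low-sodium array held the lowest level of 17 of the 28, against 34.8% of all genes.

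MT1F stood at 7.87, 9.12, 7.43 and 6.81, with a difference of -1.87, and was the only detected gene whose ratios passed 1.5-fold in opposite directions, at 1.25 in NSLC and -0.62 in HSLC. MT1G stood at 9.18, 9.76, 9.17 and 8.64, with a difference of -1.11, and MT2A at 12.13, 12.43, 12.02 and 11.54, with a difference of -0.78. In all 3 the NSLC high-sodium level was the highest and the HSLC high-sodium level the lowest, so no single array carried them. MT1X, at -0.47, was carried by the HSLC high-sodium array. MT1B went the other way at 0.71, carried by a low NSLC high-sodium level. Metallothionein genes are close paralogs, and probes for one may bind another. The 8 detected members had a median of -0.35, with 2 above 0.

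Several hormone-related and developmental genes differed through the NSLC high-sodium array. H19, an imprinted noncoding RNA, stood at 7.87, 9.45, 7.70 and 7.44, with a difference of -1.84. RASD1, a glucocorticoid-induced Ras-like protein, stood at 7.60, 9.49, 7.74 and 8.44, with a difference of -1.19. CYP21A2, the 21-hydroxylase of adrenal steroid synthesis, stood at 6.61, 7.88, 6.80 and 6.94, with a difference of -1.13. In these 3 genes the NSLC high-sodium array was the high one and the other 3 lay nearer to each other. CYP21A2 has a near-identical pseudogene. Of the other adrenal cortex genes, CYP11A1 stood at 0.07 and CYP17A1 at -0.04, and CYP11B1 and CYP11B2 were not detected on any array.

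EIF1, a translation initiation factor that selects the start codon, had the highest difference among genes detected on all 4 arrays, at 2.66. It stood at 9.87, 7.26, 9.67 and 9.71, so the NSLC high-sodium array alone was low, and the gene had 1 probe. DIO2, the deiodinase that activates thyroid hormone, stood at 6.62, 9.39, 7.13 and 8.51, with a difference of -1.38. ACTG2, a smooth muscle actin, stood at 7.92, 10.36, 8.15 and 9.42, with a difference of -1.18. Both were more than 2-fold higher on high sodium in each phenotype, by less in HSLC, and had no single carrier.

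AFP, a fetal plasma protein, and SERPINA6, the cortisol-binding globulin, were carried by a low HSLC high-sodium array. AFP stood at 9.90, 9.65, 10.04 and 8.67, with a difference of -1.13, and SERPINA6 at 9.71, 10.02, 10.05 and 9.32. TNS3, a focal adhesion protein, stood at 9.60, 10.52, 8.59 and 8.27, with a difference of -1.24. Both of its HSLC levels lay below both NSLC levels, and no single array carried it. ISG15, an interferon-induced ubiquitin-like protein, stood at 7.92, 8.16, 9.54 and 8.72, with a difference of -1.06 and no single carrier.

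BASP1, a membrane-associated signalling protein, stood at 8.52, 8.11, 7.24 and 9.05. Its difference of 2.22 joined a low HSLC low-sodium level to a high HSLC high-sodium level, so no single array carried it. DLK1, an imprinted Notch-like ligand, stood at 9.72, 9.41, 10.22 and 10.94, with a difference of 1.02 (0.79 by its other probe) and no single carrier. No gene passed 2-fold through the NSLC low-sodium array. The greatest differences that this array carried were ELMOD1 at -0.93, IRX5 at -0.79, ACER2 at -0.64 and FBLN2 at -0.62.

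No detected member of the sodium transport lists reached a 2-fold difference, and SLC12A1 came nearest. SLC12A1, the sodium-potassium-chloride cotransporter of the thick ascending limb, stood at 7.44, 8.55, 7.60 and 7.79. Its difference was -0.92, and the NSLC high-sodium array alone was high. The 16 detected genes of the thick ascending limb list had a median of -0.09 with 7 above 0, and SLC12A1 was its lowest member. FXYD4, which regulates the sodium pump in collecting ducts, stood at 6.32, 7.99, 6.77 and 7.63, with a difference of -0.80 and no single carrier.

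The subunits of the epithelial sodium channel did not share a pattern. SCNN1A, the alpha subunit, stood at 9.91, 10.13, 9.50 and 9.09, with a difference of -0.62 and no single array. SCNN1B, the beta subunit, stood at 8.67, 8.08, 8.67 and 8.50, with a difference of 0.41 carried by a low NSLC high-sodium level. SCNN1G, the gamma subunit, was at 0.07 with no single array, and between -0.29 and 0.15 over the alternatives. NEDD4L, the ligase that removes the channel from the membrane, stood at 9.05, 8.63, 9.09 and 9.16, with a difference of 0.49 by the NSLC high-sodium array. The list of the channel and of aldosterone response had a median of -0.11, with 6 of 16 above 0 and 0 past 2-fold.

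SLC12A3, the thiazide-sensitive cotransporter, was lower on high sodium in both phenotypes, at 9.53, 8.44, 9.46 and 8.57, and its difference of 0.20 had no single carrier and ran from -0.17 to 0.22 over the alternatives. The aldosterone-induced kinase SGK1 was at -0.14 and the mineralocorticoid receptor NR3C2 at -0.16, the first with no single array and the second by the NSLC low-sodium array. AGT, angiotensinogen, stood at 6.80, 7.33, 6.68 and 6.63, with a difference of -0.57 by the NSLC high-sodium array. HSD11B1, which regenerates active glucocorticoid, also stood at -0.57 by that array, and HSD11B2, which inactivates it, at 0.01 with no single array. The renin-angiotensin and kallikrein list had a median of -0.08 with 6 of 18 above 0, and ENPEP, the aminopeptidase of angiotensin II, was its lowest member at -0.76, by the HSLC high-sodium array.

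**Figure D4:**
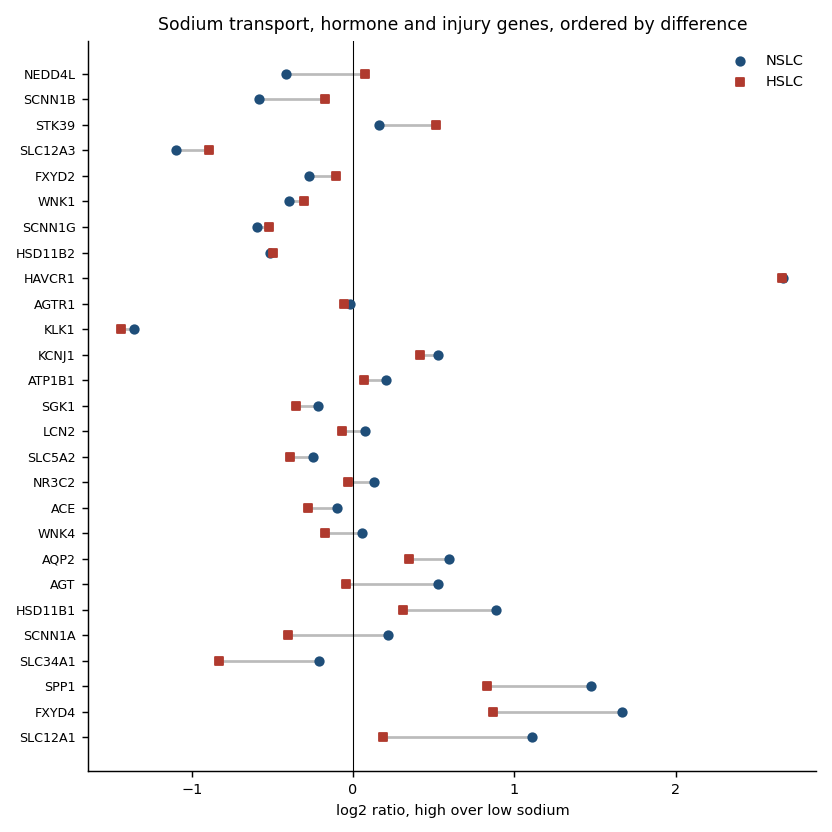
Log2 ratio of high over low sodium in NSLC (blue circles) and HSLC (red squares) for sodium transport, hormone and injury genes, ordered by the difference. SLC12A1, FXYD4 and SCNN1A at the bottom have the HSLC ratio to the left of the NSLC ratio, the points of HAVCR1 and KLK1 nearly coincide far from 0, and NEDD4L and SCNN1B at the top show the opposite order.

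Most proximal tubule markers had a negative difference, with no member past 2-fold, and most had their lowest level on the HSLC high-sodium array. The 37 detected markers had a median difference of -0.31 with 8 above 0, against 50.3% of all genes above 0. The summed level of all 43 markers on the array, detected or not, was 124090, 100540, 114220 and 81264. Of the 37, 33 had their lowest level on the HSLC high-sodium array, against 18.9% of all genes, and that array carried 11 of them while no single array carried the other 26. Over the scaling and filter alternatives the list's median stayed 0.23 to 0.55 below the median of all genes.

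CUBN, the cubilin receptor of protein reabsorption, stood at 8.23, 8.15, 8.29 and 7.61, with a difference of -0.60. SLC34A1, the sodium-phosphate cotransporter, stood at 10.47, 10.26, 9.99 and 9.16, with a difference of -0.62. SLC22A12, the urate transporter, stood at 10.57, 10.57, 10.41 and 9.58, with differences of -0.83 and -0.65 on its probes. The HSLC high-sodium array carried all 3, as it did the secreted peroxidase GPX3, at 13.68, 13.80, 13.54 and 12.78 with a difference of -0.88. LRP2, the megalin partner of cubilin, stood at -0.70 with no single array, since its NSLC high-sodium level of 11.23 was also the highest. SLC5A2, the glucose cotransporter, was at -0.15 with no single array.

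Related lists had medians on the same side, but some of them share members with the proximal tubule list, such as SLC17A3 and SLC3A1. Sodium-coupled proximal transporters had a median of -0.27 with 3 of 21 above 0, organic ion transporters -0.25 with 9 of 20, amino acid transporters -0.23 with 5 of 20, and gluconeogenesis genes -0.23 with 5 of 11. Fatty acid oxidation (-0.06, 16 of 33), the tricarboxylic acid cycle (-0.08, 8 of 21) and oxidative phosphorylation (-0.03, 20 of 44) lay nearer to 0. Whether the share of proximal tubule in the biopsies differed was not tested.

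Some genes with large diet ratios had nearly the same ratio in both phenotypes, among them an injury marker and a collagen. High over low sodium passed 2-fold upward in 62 genes (0.521%) and downward in 19 (0.16%) in NSLC, and in 64 (0.537%) and 26 (0.218%) in HSLC. Of these, 36 genes passed it the same way in both phenotypes, and 33 of these had a difference under 2-fold, 20 of them under 0.25. HAVCR1, the tubular injury marker, stood at 6.54, 9.21, 6.98 and 9.64, with a difference of -0.01. COL1A1, a type I collagen chain, stood at 7.92, 9.50, 8.03 and 9.52, with a difference of -0.09. KLK1, the tissue kallikrein, stood at 10.20, 8.84, 10.14 and 8.71, with a difference of -0.08. In these 3 genes the diets parted the arrays by more than the phenotypes did, and no single array carried a difference. HAVCR1 lay 0.44 higher in HSLC than in NSLC on low sodium and 0.43 higher on high sodium. The differences of HAVCR1 and COL1A1 took either sign over the alternatives.

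For matrix genes the median was 0.00, with 21 of 41 above 0. Kidney injury genes had a median of -0.12 with 7 of 23 above 0 and 0 past 2-fold. With the series matrix as deposited their median was 0.01, against 0.11 for all genes. Of the injury genes, 1 lay past 1.5-fold upward and 3 downward. SERPINA3, an acute phase protease inhibitor, stood at 6.87, 10.31, 7.41 and 9.92, with a difference of -0.92 and no single array. SPP1, osteopontin, was at -0.64 with no single array, and CD44, an adhesion receptor, at 0.66 by the HSLC high-sodium array.

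Blood transcripts moved with the arrays as well. The erythrocyte and platelet list, chosen for red cell and platelet RNA, had a median of 0.42 with 8 of 11 above 0. Without normalization it was 0.03, against -0.21 for all genes. HBB, the beta globin, stood at 13.78, 13.14, 14.10 and 13.88, and HBA1, an alpha globin, at 13.75, 13.16, 14.03 and 13.93. Their differences of 0.42 and 0.49 were carried by a low NSLC high-sodium array. HBG2, a fetal globin, stood at 7.81, 6.81, 9.11 and 8.85, with a difference of 0.74 and no single array, and fetal globin genes are near-identical copies. AHSP, which stabilises alpha globin, was not detected on the NSLC high-sodium array, and its difference was at least 1.33, carried by the HSLC high-sodium array at 7.55. Differences in blood content between the biopsies were not tested.

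**Figure D5:**
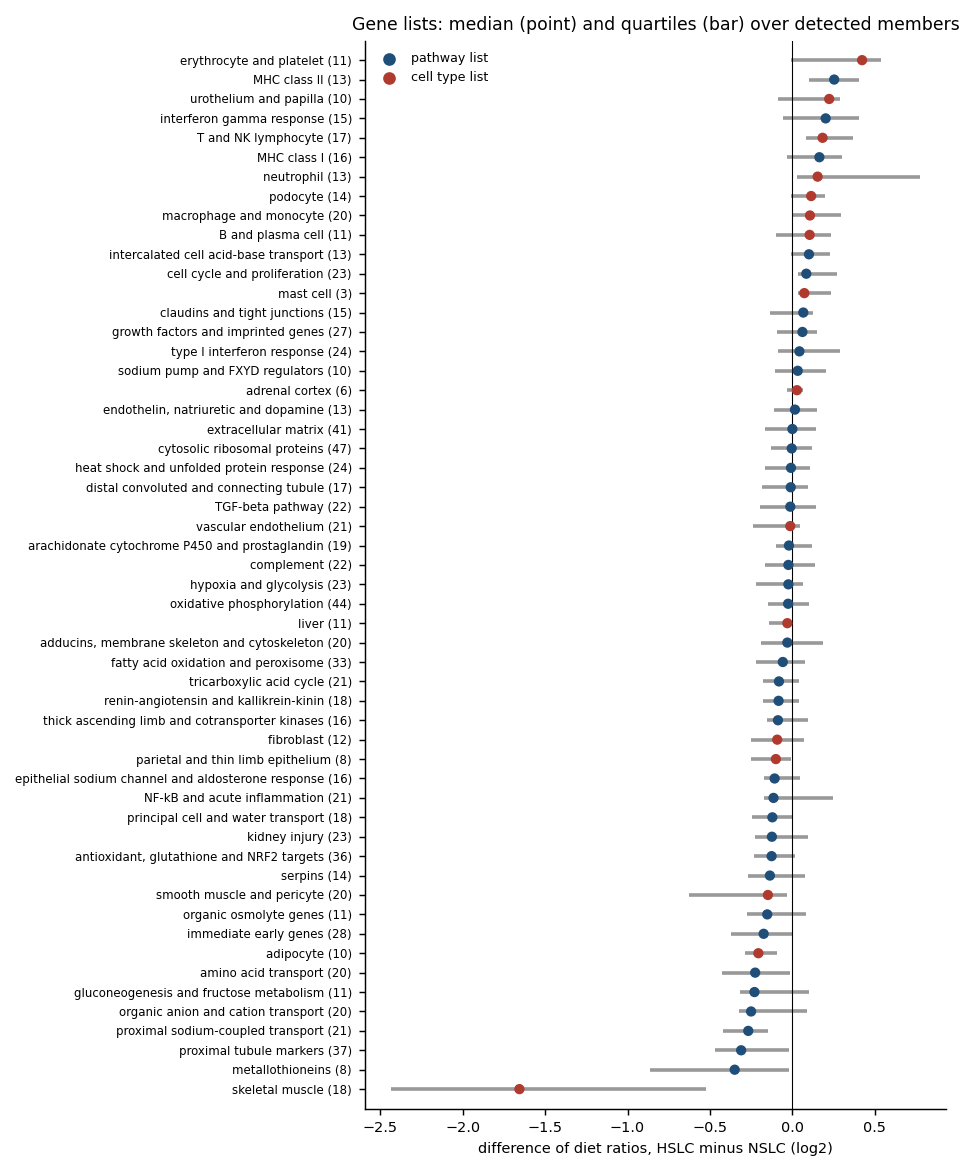
Median (point) and quartiles (bar) of the difference of diet ratios, in log2, over the members of each of 54 gene lists that were detected on all 4 arrays, whose number stands in brackets; blue marks pathway and red cell type lists. The skeletal muscle list at -1.66 lies far below all others, the metallothionein and proximal tubule lists follow at -0.35 and -0.31, and the erythrocyte list at 0.42 is the highest.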

How the data were processed

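Kidney RNA was isolated with Trizol, cleaned on RNeasy columns and labelled by Illumina TotalPrep (Cy3), per the labels' protocols. Each deposited array file gives 48702 probes as intensity on a linear scale, from BeadStudio per the submitters' processing notes. How the authors corrected background and scaled the arrays is not given in the sources used. The deposited series matrix has equal mean intensity within each phenotype (215.2 in NSLC and 191.9 in HSLC) and was an alternative.

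One probe listed at 0 was left out. Intensities received the normexp correction with an offset of 50, quantile normalization over the 4 arrays and log2 (limma 3.58.1, R 4.3.3). A probe was detected above its array's median. Of all probes, 23687 had 1 gene symbol in the platform annotation, 35 several and 24979 none. The probe with the highest mean stood for its gene. The 1-symbol requirement, the 2-fold size rule and the carrier rule are not tests, and the number of arrays limits the precision. A gene detected on 3 arrays received a bound, with the fourth at its median. The offset compresses low ratios. Human probes on baboon RNA can lose signal where sequences differ.

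Named genes were the 15 highest and 15 lowest differences, the 6 greatest carried by each array, up to 3 per list, a fixed set of sodium and hormone genes, bounds, and genes with equal or opposite ratios. Other named genes were chosen after their values were seen: list members given to show a list's spread, NRAP, FHL3, DIO2, ZFP36, TNNC1, CKMT2, MYBPC2, PDLIM7, CTH and PSAP. The comparison, the members and the 54 gene lists (38 of pathways, 16 of cell types) were chosen with earlier results of these data known. Scripts were tested on simulated data.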

Additional observations from a re-analysis of the deposited data

Results flagged for a closer look

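The diet ratio had opposite signs in the phenotypes in 16 of the 42 genes past 2-fold and in 3183 of all 11908 detected genes. In 12 of the 16, described here, each ratio was also larger than the scatter between bright probes of 1 gene, which was 0.21 in NSLC and 0.17 in HSLC. Dimmer genes such as FHL3 were held to the same scatter. MYBPH, DES, MPO and EIF1 had a ratio within that scatter in one phenotype. The probes of a gene were read on the same arrays, so their scatter does not measure variation between biopsies or animals. With 1 array a group the difference was not tested in any of these genes. Over the alternatives the sign of the difference was followed, but not the sign of each ratio. Without normalization the median ratio of all genes moved from 0.04 to 0.29 in NSLC and from 0.01 to 0.03 in HSLC. In 10 of the 12 the ratio was above 0 in NSLC and below 0 in HSLC, with differences of -2.27 for PDLIM3, -1.87 for MT1F, -1.84 for H19, -1.50 for FOS, -1.26 for ZFP36, -1.25 for FHL3, -1.24 for TNS3, -1.11 for MT1G, -1.06 for ISG15 and -1.04 for SERPINA6. Of the 12, DLK1 at 1.02 and BASP1 at 2.22 had the opposite order. A single array carried PDLIM3 (HSLC low sodium), H19 (NSLC high sodium), FOS and SERPINA6 (HSLC high sodium), and no single array carried the other 8.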

How the results depend on the processing

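All 42 genes past 2-fold kept their sign in each of the 10 scaling, detection and probe alternatives that measured them, and 36 (7 higher, 29 lower) stayed past 2-fold in all of those. The exceptions were ACTG2, MYBPC2, PDLIM7, DES, ISG15 and DLK1. The count of higher genes was 8, and moved to 16 with an offset of 16, 16 with the series matrix as deposited and 73 at 1.5-fold. The count of lower genes was 34, and moved to 103 without normalization, 75 with median scaling, 53 with no detection filter, 146 at 1.5-fold and 22 without the skeletal muscle list. Higher genes made up 19.05% of the calls, but 6.36% without normalization and 8.54% with median scaling, where the median of all genes moved by over 0.1. It also moved to 0.11 with the series matrix as deposited. The NSLC low-sodium array, with 0 genes, carried 4 without normalization, 4 with median scaling, 1 with an offset of 16 and 1 with no limit on the span. The NSLC high-sodium array, with 4, carried 26, 20, 8 and 11 in those settings and 8 with the series matrix as deposited. The HSLC low-sodium array, with 18, carried 37 with no detection filter. The HSLC high-sodium array, with 8, carried 5 with median scaling, 13 with an offset of 16 and 4 with a stricter span. The interferon gamma list turned to -0.14 without normalization and -0.068 with median scaling, and MHC class II to -0.060 without normalization. Each of these list medians lay above the median of all genes in the same setting. The cause of these moves was not tested. No array could be left out, since each group has 1. No paired analysis was possible because each group has 1 array and the labels carry no replicate numbers. Genes near the detection level of 6.23 have compressed ratios, which limits what can be said of MPO, S100A9 and CXCR1. The same limit holds for other genes with such levels on some arrays, among them HRC, MYBPH, TNNC2, DEFA1B, FXYD4, HAVCR1, PTGDS and RHAG. With an offset of 16, the difference was -2.11 in MYBPH, 1.41 in PTGDS and 1.42 in RHAG, further from 0 than in the main setting. In DEFA1B it was 2.56, close to its main value of 2.59.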

Other observations

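Probes without a single gene symbol were left out of the counts above. Of these, 7796 were detected on all 4 arrays, and 7 were 2-fold higher and 8 lower in the difference (0.192%), between -2.32 and 3.66. The HSLC low-sodium array carried 4 of these 15 probes, the other 3 arrays 1 each, and no single array the other 8. Of the genes with a positive difference short of 2-fold, USH1G at 0.96, the cytokine IL16 at 0.89 and the epoxygenase CYP2C8 at 0.70 stood lower on high sodium in both phenotypes, by less in HSLC. CYP2C8 stood at 8.48, 7.15, 8.13 and 7.50 in the order NSLC low, NSLC high, HSLC low and HSLC high sodium, and no single array carried any of these 3. PTGDS, a prostaglandin D synthase, stood at 6.47, 6.33, 6.41 and 7.21, and RHAG, an erythroid membrane protein, at 6.57, 6.32, 6.45 and 7.16. Both had a difference of 0.95, carried by the HSLC high-sodium array.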
